A study of Mus musculus with 18 samples.

Results

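A set of 10 chemokine genes outside the Cxcr3 axis was followed in liver and in intestinal epithelium of mice after bone marrow transplantation with or without donor T cells. The 10 genes were taken by symbol, and all 10 had a row among the 53379 genes of the count table. They are Cxcl1, Ccl5, Ccl6, Ccl9, Ccl20, Ccl25, Ccl28, Cxcl13, Cxcl16 and Cx3cl1. Chemokines are small proteins that bind receptors on leukocytes and steer where these cells go. Some are made in inflammation, such as Cxcl1, which draws neutrophils through Cxcr2, and Ccl5, which activated T cells and other cells release for receptors that include Ccr1 and Ccr3. Others are made by resting tissue and set where lymphocytes settle, such as Ccl25, which small intestinal epithelium makes for cells with Ccr9, and Ccl28, which mucosal epithelium makes for cells with Ccr10.

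RNA was sequenced from bulk liver and from epithelial cells isolated from both parts of the intestine, in 18 libraries. The BMT group received 10000000 marrow cells together with 1000000 T cells, and the BM group received 10000000 marrow cells and no added T cells. All recipients were BALB/cJ females of an inbred mouse strain, aged 6 to 8 weeks and lethally irradiated before transplantation, and tissue was taken on day 7. Each group had 3 libraries in each tissue, and irradiation and marrow were common to both groups. The sources used here do not give the donor strain. The labels do not state that the 3 libraries of a group came from separate mice, and p-values then measure the spread between libraries, which may be technical.

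Titles and library codes disagreed for the intestine: the libraries coded LI were titled small intestine and those coded SI large intestine. Of 10 genes known from small intestine, 9 were higher in each of the 6 code SI libraries than in any code LI library, among them the ileal bile acid binding gene Fabp6, with a median of 5516 CPM in code SI and 3.33 CPM in code LI. Of 10 genes known from large intestine, 8 were higher in each code LI library, among them Hoxb13, at 41.9 to 170 CPM in code LI and at 0 counts in all 6 code SI libraries. Region markers thus went against the titles, and the sets are called code LI and code SI epithelium throughout. CPM is the count of a gene per 1000000 counts of its library. Library totals ran from 18845483 to 25610937 counts, so a floor of 3 counts stood at 0.117 to 0.159 CPM, and such floors cover counting error only. One liver library stood apart for interferon-induced genes: BM replicate 3 had 2323 CPM of Cxcl9, against 29.1 and 180 CPM in BM replicates 1 and 2. Within each tissue, mitochondrial transcripts took a smaller share of counts in all BMT libraries than in all BM libraries, at 2.77 to 7.46% in BMT and 4.22 to 10.7% in BM over the 3 tissues.

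The chemokines moved in different directions in the 3 tissues. Of the 10, 6 passed the filter on low counts in liver, where Cxcl1, Ccl5 and Ccl6 rose in BMT and none fell, while edgeR called 10.8% of all 14134 genes tested there, 7.46% higher and 3.35% lower. All 10 were tested in code LI epithelium, where Cxcl16, Ccl5 and Ccl9 rose and Cxcl13, Ccl6 and Ccl28 fell, beside a background of 41.4% of 14880 genes (20.4% higher and 21% lower). In code SI epithelium, with 10 tested, Ccl5 rose and Cxcl13, Ccl6, Ccl9, Ccl20 and Ccl28 fell, beside 23.4% of 14621 genes (11.6% higher and 11.8% lower). Libraries of the 2 groups did not overlap for 3 higher and 0 lower chemokines in liver, 3 higher and 4 lower in code LI, and 1 higher and 6 lower in code SI. Among all genes with at least 60 counts over 6 libraries the shares without overlap were 11.1% higher and 28% lower in liver, 25.5% and 28% in code LI, and 16.2% and 22.9% in code SI. That filter was not applied to the 10. Cxcl13, 1 of the 6 lower in code SI, was below it with 4 counts in BMT and 52 in BM. Ccl20, Ccl28 and Cx3cl1 were below it in liver, where their groups overlapped. The median log2 fold change was 1.22 over the 6 tested in liver, 0.24 over 10 in code LI and -0.78 over 10 in code SI, beside medians of -0.02, 0.00 and 0.02 over all genes tested in those tissues. A gene is said to have risen or fallen where the adjusted p of edgeR's quasi-likelihood test was under 0.05, fold changes are BMT over BM, each ± on CPM is a standard deviation and each ± on a log2 fold change a standard error, with n = 3 per group.

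**Figure D1:**
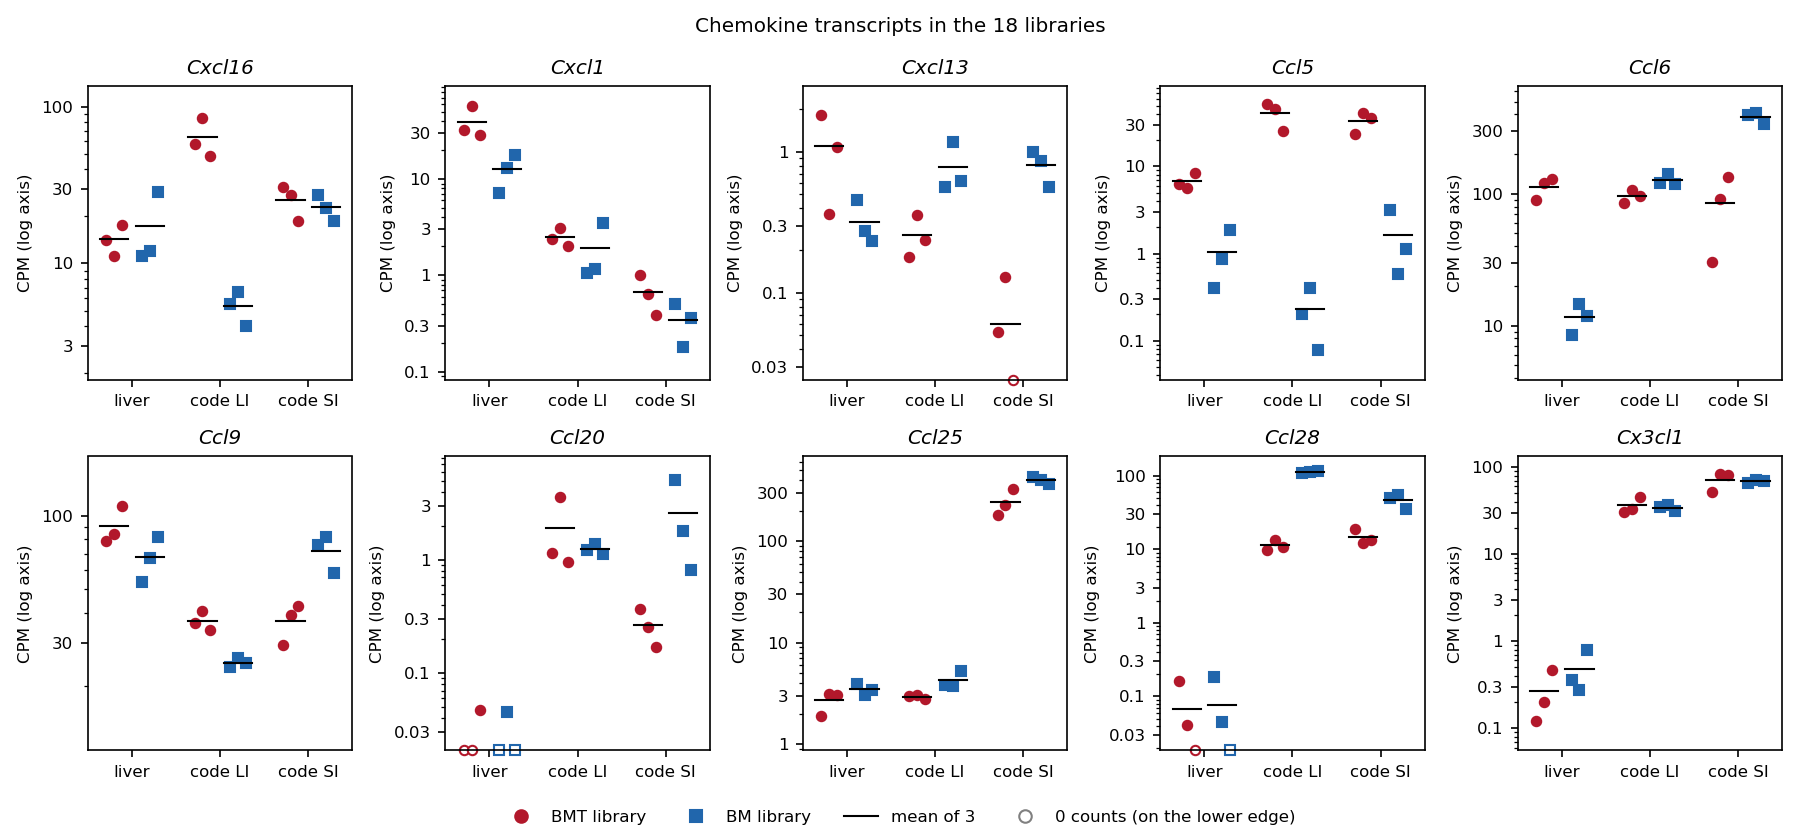
CPM of each chemokine on a log axis in the 3 BMT libraries (red circles) and the 3 BM libraries (blue squares) of each tissue, with the mean of 3 as a black line and 0 counts as a hollow symbol on the lower edge. Ccl5 sits higher in BMT in each tissue, Cxcl16 at 48.4 to 84.6 CPM in BMT against 3.98 to 6.6 CPM in BM of code LI only, and Ccl6 higher in BMT in liver but lower in BMT in code SI.

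**Figure D2:**
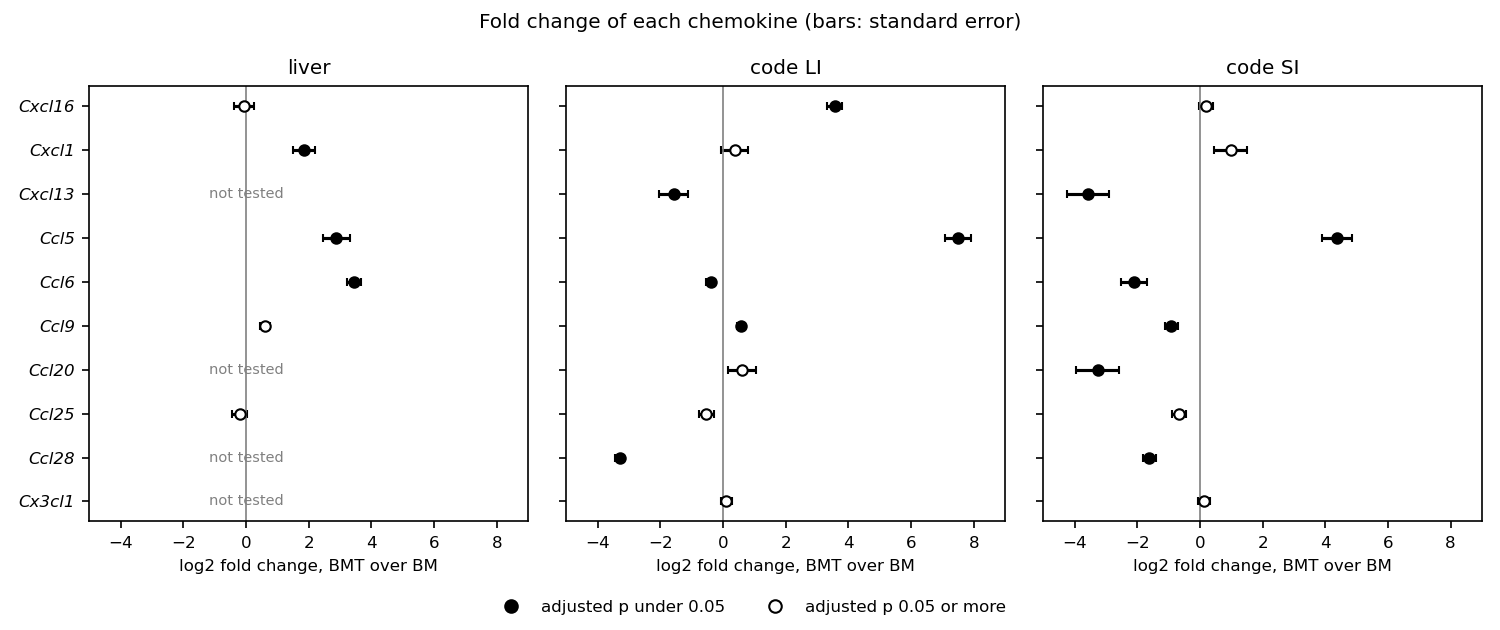
Log2 fold change of BMT over BM for each chemokine in liver, code LI and code SI epithelium, with its standard error as a bar. Filled points have an adjusted p under 0.05, hollow points do not, and the 4 chemokines that failed the low-count filter in liver are written as not tested.

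Cxcl1, the neutrophil chemoattractant, was mainly a liver transcript here. Liver held 32, 57.9 and 28.8 CPM of it in BMT replicates 1, 2 and 3, against 7.1, 13.1 and 17.9 CPM in BM replicates 1, 2 and 3. All BMT livers lay above all BM livers, and Cxcl1 rose with a log2 fold change of 1.84 ± 0.36 (edgeR adjusted p = 0.0169). Without BMT replicate 2, which was the highest, the log2 fold change was 1.47 (edgeR adjusted p = 0.0618). Leaving out BM replicate 2 gave 1.89 (edgeR adjusted p = 0.0673), so the call rested on these libraries. Without BM replicate 3, the liver library that stood apart, it was 2.09 (edgeR adjusted p = 0.0102). Code LI epithelium held 2.42, 3.1 and 2 CPM in BMT, against 1.07, 1.17 and 3.48 CPM in BM, and the groups overlapped through BM replicate 3. The log2 fold change there was 0.37 ± 0.43 (edgeR adjusted p = 0.513), and leaving out BM replicate 3 gave 1.18 (edgeR adjusted p = 0.0227). Code SI epithelium held 1.01, 0.644 and 0.386 CPM in BMT, against 0.5, 0.181 and 0.358 CPM in BM, with overlapping groups and an edgeR adjusted p of 0.197. All 11 neutrophil markers were called higher in liver, beside 7.46% of all genes tested there. Their summed level was 603, 241 and 144 CPM in BMT replicates 1, 2 and 3, against 14.4 to 20.3 CPM in BM. The highest sum was in BMT replicate 1 and the highest Cxcl1 in BMT replicate 2, an order of 3 libraries that was not tested. None of the 11 was at 0 in either group, but 1 held 3 counts or fewer in a group. A marker near 0 in BM could only be called higher. In code LI, where Cxcl1 did not pass, 4 of 5 neutrophil markers tested rose and 1 fell, beside 41.4% of all genes called. Their sum there was 721 to 1416 CPM in BMT against 179 to 224 CPM in BM. In code SI 2 of 5 tested rose and 1 fell, beside 23.4% of all genes called. The median log2 fold change of these 5 was 1.25. The sum of all 11 went the other way there, with 14.1 to 28.9 CPM in BMT against 35.4 to 52.7 CPM in BM, where 4 of the 11 were at 0. Sums follow their highest genes, and Cd177 alone had a mean of 40.1 CPM over the 18 libraries, so no direction of the list is read from the sum. Their part in the Cxcl1 result was not tested, and in bulk tissue more cells of a type and more RNA per cell cannot be told apart.

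The Cxcl1 gene (ENSMUSG00000029380.11) lies at chr5:90891241-90893115 on the plus strand (GRCm38), and it, Ccl20 and Ccl9 were those of the set whose 250 bases before the RefSeq start held a match to the NF-kappaB motif. NF-kappaB is the transcription factor family that inflammatory signals activate. The motif searched was GGG, any 3 bases, TTCC, on both strands, and 4.65% of 32851 RefSeq promoter windows of the same length held it. RefSeq windows (GRCm38.p6) were found for 8 of the 10 genes, not for Cxcl16 and Ccl5. The sequences of Cxcl1 (chr5:90890995-90891244, plus strand), Ccl20 (chr1:83116516-83116765, plus strand) and Ccl9 (chr11:83578637-83578886, minus strand) are shown because the first rose in liver, the second fell in code SI and the third went both ways, while Ccl6 (chr11:83593088-83593337, minus strand), a neighbour of Ccl9 with larger fold changes in liver and code SI, held none. Capitals mark the matches:
Cxcl1: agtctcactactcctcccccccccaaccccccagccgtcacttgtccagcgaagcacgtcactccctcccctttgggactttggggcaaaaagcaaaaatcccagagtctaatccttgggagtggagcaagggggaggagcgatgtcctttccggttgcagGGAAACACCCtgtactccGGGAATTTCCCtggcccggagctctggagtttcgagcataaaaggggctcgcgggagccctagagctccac
Ccl20: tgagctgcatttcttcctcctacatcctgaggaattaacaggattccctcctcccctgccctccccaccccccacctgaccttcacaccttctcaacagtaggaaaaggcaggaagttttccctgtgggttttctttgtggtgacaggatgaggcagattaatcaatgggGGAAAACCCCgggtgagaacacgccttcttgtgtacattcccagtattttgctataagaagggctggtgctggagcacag
Ccl9: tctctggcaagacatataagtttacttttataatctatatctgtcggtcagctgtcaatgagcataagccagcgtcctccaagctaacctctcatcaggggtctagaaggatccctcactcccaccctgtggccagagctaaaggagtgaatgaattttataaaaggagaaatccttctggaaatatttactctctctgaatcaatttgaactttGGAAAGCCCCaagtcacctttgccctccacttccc
Ccl6: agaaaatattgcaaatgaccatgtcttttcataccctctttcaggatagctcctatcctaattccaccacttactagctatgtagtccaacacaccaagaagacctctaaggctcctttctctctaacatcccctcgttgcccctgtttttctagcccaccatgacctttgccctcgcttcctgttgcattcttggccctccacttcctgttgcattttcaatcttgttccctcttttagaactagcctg
Cxcl1 held 3 matches, at bases -89 to -80, -71 to -62 and -70 to -61 from the start, the last pair overlapping on opposite strands. Ccl20 held 1 match at -80 to -71 and Ccl9 held 1 at -35 to -26. Searches for GAS (TTCNNNGAA, in 7.02% of windows), ISRE (GAAA, any 2 bases, GAAA, in 2.98%) and a CDX motif (TTTATNG, in 9.81%) found no match in any of the 8 windows. A match describes letters in a window and not a site in use.

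Ccl5, which draws T cells and monocytes and is itself made by activated T cells, rose in all 3 tissues. It (ENSMUSG00000035042.2) lies at chr11:83525778-83530518 on the minus strand. Epithelium coded LI held 52.3, 46 and 25.7 CPM in BMT, against 0.204, 0.404 and 0.0781 CPM in BM, where the libraries held 4, 9 and 2 counts. The BMT libraries stood far above BM, with a log2 fold change of 7.49 ± 0.41 (edgeR adjusted p = 4.17e-07), or 8.21 without BM replicate 2. The code SI set held 23.8, 40.5 and 35.5 CPM in BMT, against 3.18, 0.588 and 1.12 CPM in BM, and the log2 fold change was 4.37 ± 0.48 (edgeR adjusted p = 0.000102), or 5.36 without BM replicate 1. Liver held 6.32, 5.63 and 8.3 CPM in BMT, against 0.407, 0.864 and 1.86 CPM in BM, with a log2 fold change of 2.88 ± 0.42 (edgeR adjusted p = 0.0063), or 3.51 without BM replicate 3. No BMT library overlapped a BM library in any of the 3 tissues. All 14 T cell markers were called higher in each tissue, beside 7.46%, 20.4% and 11.6% of all genes tested in liver, code LI and code SI. Markers near 0 in BM could only be called higher, and 2 held 3 counts or fewer in a group in code LI and 2 in code SI. No support for the Ccl5 result is read from the number called. The 14 summed to 76.3 to 78.9 CPM in BMT against 4.57 to 9.37 CPM in BM of liver. In code LI the sum was 407 to 656 CPM in BMT against 7.08 to 9.25 CPM in BM, and in code SI 217 to 324 CPM in BMT against 4.39 to 14.4 CPM in BM. Of these markers only Cd5 was at 0 in a whole group, the BM libraries of code LI. The part of T cells in the chemokine levels was not tested.

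Ccl6 and Ccl9 are neighbouring CC chemokines that are best known from mouse myeloid cells and act through Ccr1. Ccl6 rose in liver and fell in both epithelial sets. It (ENSMUSG00000018927.3) lies at chr11:83587882-83593087 on the minus strand, and overlaps E230016K23Rik on the other strand, whose mean over the 18 libraries was 0.693 CPM. Liver held 89.8, 121 and 130 CPM in BMT, against 8.51, 14.6 and 11.8 CPM in BM. Every BMT liver was far above every BM liver, with means of 114 ± 21.1 CPM in BMT and 11.6 ± 3.05 CPM in BM, and the log2 fold change was 3.46 ± 0.22 (edgeR adjusted p = 0.00118), or 3.41 without BM replicate 3. In code SI epithelium the direction was the other: BMT libraries held 30.2, 92 and 133 CPM, against 397, 411 and 336 CPM in BM. The highest BMT library lay below the lowest BM library, and Ccl6 fell by 2.10 ± 0.41 on the log2 scale (edgeR adjusted p = 0.00413). Libraries of code LI held 85.7, 107 and 95.5 CPM in BMT, against 120, 142 and 119 CPM in BM. These groups lay close to each other without overlap, and Ccl6 fell by 0.40 ± 0.14 on the log2 scale (edgeR adjusted p = 0.0392). That call was lost when any of 5 of the 6 libraries was left out, with edgeR adjusted p of 0.062 to 0.183.

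Ccl9 had smaller log2 fold changes than Ccl6 in liver and in code SI. It (ENSMUSG00000019122.8) lies at chr11:83572919-83578636 on the minus strand. In code SI epithelium it held 29.4, 39 and 42.4 CPM in BMT, against 76, 81.7 and 58.3 CPM in BM. All BMT libraries were lower, and Ccl9 fell by 0.91 ± 0.20 on the log2 scale (edgeR adjusted p = 0.0073). Code LI epithelium went the other way, with 36.1, 40.8 and 33.8 CPM in BMT against 23.8, 25.9 and 24.8 CPM in BM, a log2 fold change of 0.58 ± 0.13 (edgeR adjusted p = 0.00508). Liver held 79.2, 84 and 110 CPM in BMT, against 53.5, 67.4 and 82.1 CPM in BM. Those groups overlapped through BM replicate 3, and the log2 fold change was 0.61 ± 0.16 (edgeR adjusted p = 0.0512). Leaving out BM replicate 3 gave 0.70 (edgeR adjusted p = 0.025). Monocyte and macrophage markers were measured beside them. In liver 6 of 10 tested rose, beside 7.46% of all genes called higher, and in code LI 7 of 8, beside 20.4%. In code SI 3 of 8 rose and 1 fell, beside 11.6% of all genes called higher and 11.8% lower. Their summed level in code SI was 59.7 to 71 CPM in BMT against 24.4 to 41.2 CPM in BM. In liver it was 229 to 334 CPM in BMT against 99.3 to 167 CPM in BM, and in code LI 112 to 162 CPM in BMT against 46.7 to 48.6 CPM in BM, with Fcgr1 at 0 in BM of code LI. Their part in the Ccl6 and Ccl9 results was not tested in any of the 3 tissues.

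Ccl28, the epithelial chemokine for cells with Ccr10 and Ccr3, fell in both epithelial sets. It (ENSMUSG00000074715.3) lies at chr13:119623819-119654359 on the plus strand. The code LI set held 9.8, 13.6 and 10.7 CPM in BMT, against 111, 112 and 115 CPM in BM. The BM libraries lay within a few CPM of each other and every BMT library lay far below them, with means of 11.4 ± 1.96 CPM in BMT and 113 ± 2.19 CPM in BM. Ccl28 fell by 3.30 ± 0.15 on the log2 scale (edgeR adjusted p = 1.56e-07). For code SI the libraries held 19.2, 12.3 and 13.4 CPM in BMT, against 49.7, 55.2 and 36 CPM in BM, again without overlap, and Ccl28 fell by 1.61 ± 0.22 on the log2 scale (edgeR adjusted p = 0.000457). Liver held 5 counts of it over the 3 BMT libraries and 5 over the 3 BM libraries. Of 10 general epithelial markers, 4 rose and 1 fell in code LI, and 2 rose and none fell in code SI. Their shares called were near those of all genes tested, 41.4% in code LI and 23.4% in code SI. Their summed level was 21899 to 27230 CPM in BMT against 16404 to 18830 CPM in BM of code LI, and 20332 to 22048 CPM in BMT against 16764 to 18848 CPM in BM of code SI. Among regional markers in code LI, 4 of 10 large intestine genes fell and 1 rose, and 4 of 9 small intestine genes tested fell and 1 rose. Of all genes tested there, 21% were called lower and 20.4% higher. The large intestine genes summed to 6366 to 9771 CPM in BMT against 11964 to 13290 CPM in BM. Car1 alone held 4723 to 10325 CPM over the 6 code LI libraries. In code SI, 3 of 10 small intestine genes fell and 4 rose, and 1 of 5 large intestine genes tested fell and 1 rose. Of all genes tested there, 11.8% were called lower and 11.6% higher. The part of epithelial cells in the Ccl28 result was not tested.

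Ccl25, the small intestinal chemokine for cells with Ccr9, was high in code SI epithelium and low elsewhere. It (ENSMUSG00000023235.14) lies at chr8:4325210-4360020 on the plus strand, and its first bases overlap the span of Elavl1 on the other strand, whose mean was 65.7 CPM over the 18 libraries. The sources used here do not give the strand setting of the counting, so reads of the pair may not be told apart. Levels in code SI were 181, 225 and 324 CPM in BMT, against 426, 401 and 370 CPM in BM. All BMT libraries were lower, with means of 243 ± 73.6 CPM in BMT and 399 ± 28.4 CPM in BM, and the log2 fold change was -0.66 ± 0.22 (edgeR adjusted p = 0.054). BMT replicate 3 was the nearest to BM, and without it the log2 fold change was -0.96 (edgeR adjusted p = 0.00288). Code LI epithelium held 3, 3.05 and 2.81 CPM in BMT, against 3.87, 3.73 and 5.23 CPM in BM, a log2 fold change of -0.53 ± 0.23 (edgeR adjusted p = 0.0886). Liver held 1.92, 3.12 and 3.07 CPM in BMT, against 3.89, 3.09 and 3.45 CPM in BM, with overlapping groups and an edgeR adjusted p of 0.646. At these low levels reads of the overlapping gene may not be told apart from it.

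Ccl20, which epithelium over lymphoid follicles makes for cells with Ccr6, was a low transcript that fell in code SI epithelium. It (ENSMUSG00000026166.14) lies at chr1:83116766-83119167 on the plus strand. Code SI epithelium held 0.371, 0.257 and 0.171 CPM in BMT, against 5.14, 1.81 and 0.818 CPM in BM. The BM libraries differed from each other several-fold, and all lay above the BMT libraries, and Ccl20 fell by 3.26 ± 0.69 on the log2 scale (edgeR adjusted p = 0.00603). Without BM replicate 1, the highest, it fell by 2.24 (edgeR adjusted p = 0.0207). Levels in code LI were 1.16, 3.59 and 0.954 CPM in BMT, against 1.22, 1.39 and 1.13 CPM in BM. BMT replicate 2 alone stood above the BM libraries, and the log2 fold change was 0.60 ± 0.46 (edgeR adjusted p = 0.32). Liver held 1 count in the BMT group and 1 in the BM group.

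Cxcl13, the B cell chemoattractant that acts through Cxcr5, was lower in BMT in both epithelial sets at very low counts. It (ENSMUSG00000023078.6) lies at chr5:95956951-95961068 on the plus strand. Epithelium coded SI held 1, 3 and 0 counts in BMT, against 22, 19 and 11 counts in BM. In CPM these were 0.0531, 0.129 and 0 in BMT, against 1, 0.86 and 0.562 in BM, and Cxcl13 fell by 3.57 ± 0.67 on the log2 scale (edgeR adjusted p = 0.00327). Without BMT replicate 2 it fell by 4.74, with 1 count left in BMT. In code LI, libraries held 0.179, 0.359 and 0.238 CPM in BMT, against 0.56, 1.17 and 0.625 CPM in BM, and it fell by 1.58 ± 0.47 on the log2 scale (edgeR adjusted p = 0.0204). The groups did not overlap, but the call was lost without BMT replicate 1 (edgeR adjusted p = 0.0737), without BM replicate 2 (0.12), with all 18 libraries in 1 fit (0.0528) and with DESeq2 (adjusted p = 0.0688). Liver held 1.83, 0.365 and 1.09 CPM in BMT, against 0.453, 0.273 and 0.233 CPM in BM, and the gene failed the low-count filter there. BMT replicate 2 overlapped the BM livers. Fitted without that filter, its log2 fold change in liver was 1.92 (edgeR adjusted p = 0.0417), and with DESeq2 it was 1.95 (adjusted p = 0.0536). B and plasma cell markers summed to 1.17 to 1.63 CPM in BMT against 2.58 to 6.36 CPM in BM of code SI, and to 1.76 to 2.96 CPM in BMT against 1.05 to 1.94 CPM in BM of code LI. Of 8 such markers 1 was tested in code LI and did not pass, while 2 were tested in code SI and 1 fell. Their part in the Cxcl13 result was not tested.

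Cxcl16 and Cx3cl1 are the chemokines anchored in the membrane, from which the proteases Adam10 and Adam17 release them, and they bind Cxcr6 and Cx3cr1. Cxcl16 rose in code LI and passed the test in neither of the other tissues. It (ENSMUSG00000018920.11) lies at chr11:70453983-70459984 on the minus strand and overlaps Zmynd15 on the other strand, whose mean was 2.14 CPM. Epithelium coded LI held 58.1, 84.6 and 48.4 CPM in BMT, against 5.55, 6.6 and 3.98 CPM in BM. Every BMT library was far above every BM library, the ratio of the means was 11.8 and the log2 fold change was 3.57 ± 0.24 (edgeR adjusted p = 1.74e-06). Libraries of code SI held 30.7, 27.3 and 18.6 CPM in BMT, against 27.4, 22.4 and 18.7 CPM in BM. These groups overlapped, with a log2 fold change of 0.19 ± 0.22 (edgeR adjusted p = 0.557). Liver held 14, 11.2 and 17.6 CPM in BMT, against 11.2, 12.1 and 28.4 CPM in BM, and BM replicate 3 was the highest. The log2 fold change in liver was -0.07 ± 0.32 (edgeR adjusted p = 0.921), and leaving out BM replicate 3 gave 0.40 (edgeR adjusted p = 0.178).

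Cx3cl1 did not pass the test in any tissue. It (ENSMUSG00000031778.13) lies at chr8:94772009-94782427 on the plus strand. The code SI set held 51.2, 82.9 and 82.1 CPM in BMT, against 65.5, 71.6 and 69.2 CPM in BM, a log2 fold change of 0.12 ± 0.20 (edgeR adjusted p = 0.699). Code LI epithelium held 30.2, 33.2 and 45.5 CPM in BMT, against 34.9, 36.3 and 31.2 CPM in BM, a log2 fold change of 0.11 ± 0.19 (edgeR adjusted p = 0.674). The groups overlapped in both sets. Liver held 0.122, 0.203 and 0.472 CPM in BMT, against 0.362, 0.273 and 0.792 CPM in BM, and was not tested. Adam10 had a log2 fold change of 0.33 in liver, -0.26 in code LI and 0.37 in code SI, and Adam17 -0.07, 0.17 and 0.41, none of which passed. Dpp4, which trims and inactivates several chemokines, fell by 1.55 ± 0.18 on the log2 scale in code LI (edgeR adjusted p = 7.88e-05), and Mme, another trimming protease, fell by 2.77 ± 0.50 in liver (edgeR adjusted p = 0.0129). These were the only calls among the 4 proteases listed, of which 4 were tested in liver, 3 in code LI and 4 in code SI.

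Whether the BMT effect differed between tissues was tested in 1 model over all 18 libraries with the library number as a block. Between code SI and code LI, 5 of the 10 passed, 4 of them lower and 1 higher in code SI, beside 4.91% of 17275 genes (2.51% lower and 2.4% higher). For Cxcl16 the difference of log2 fold changes, code SI minus code LI, was -3.35 ± 0.45 (edgeR adjusted p = 0.000718). It was -3.37 ± 0.80 for Ccl20 (edgeR adjusted p = 0.026), -1.85 ± 0.40 for Ccl6 (0.0168) and -1.48 ± 0.24 for Ccl9 (0.00255). For Ccl28 it was higher in code SI by 1.73 ± 0.36 (edgeR adjusted p = 0.0138), a smaller fall than in code LI. The difference for Ccl5 was -2.96 ± 0.87 and did not pass (edgeR adjusted p = 0.0654). Without BM replicate 1 in all tissues 3 of the 10 passed, and without BM replicate 2 there were 2, Cxcl16 and Ccl9. Ccl6 and Ccl20 lost the call without BM replicate 1 (edgeR adjusted p = 0.0639 and 0.109), Ccl20 without BMT replicate 2 (0.0942) and Ccl28 without BMT replicate 1 (0.0626).

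Between liver and code SI, 3 of the 10 passed, all higher in liver, beside 15% of genes (8.67% higher). The BMT effect was higher in liver by 5.75 ± 0.43 for Ccl6 (edgeR adjusted p = 5.26e-06), by 5.37 ± 0.99 for Cxcl13 (0.00249) and by 1.54 ± 0.24 for Ccl9 (0.000727). The Cxcl13 difference was 4.66 without BMT replicate 1 and 7.02 without BMT replicate 2. Between liver and code LI, 5 passed, 3 higher and 2 lower in liver, beside 18.8% of genes (10.6% higher and 8.13% lower). The effect was higher in liver for Ccl6 by 3.90 ± 0.41 (edgeR adjusted p = 2.08e-05), for Cxcl13 by 3.43 ± 0.86 (0.0128) and for Cxcl1 by 1.37 ± 0.43 (0.0387). The difference, liver minus code LI, was -3.55 ± 0.46 for Cxcl16 (edgeR adjusted p = 0.00011) and -4.57 ± 0.89 for Ccl5 (0.00251). Without BMT replicate 1 in all tissues 3 of the 10 passed in this comparison, and the calls lost were those of Cxcl1 and Cxcl13 (edgeR adjusted p = 0.0793 and 0.0959). The Cxcl1 call was also lost without BMT replicate 2 (edgeR adjusted p = 0.14), without BM replicate 3 (0.21) and with library totals (0.086), and that of Cxcl13 without BM replicate 2 (0.0868). For Ccl5 the difference was -3.49 without BM replicate 3 and -5.39 without BM replicate 2, for Cxcl16 it was -2.93 without BM replicate 3, and for Cxcl13 4.22 without BMT replicate 2. The Cxcl13 values rest on few counts in each tissue, and the 3 comparisons share libraries.

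Within the BM group, 8 of the 10 differed between code SI and code LI, 6 higher and 2 lower in code SI, beside 41.1% of 14680 genes (18.8% higher and 22.3% lower). Ccl25 was higher in code SI by 6.50 ± 0.19 on the log2 scale (edgeR adjusted p = 1.63e-14), Ccl5 by 2.61 ± 0.56 (0.00101) and Cxcl16 by 2.05 ± 0.18 (2.93e-08). Ccl6 was higher there by 1.54 ± 0.14 (edgeR adjusted p = 4.46e-08), Ccl9 by 1.48 ± 0.15 (1.63e-07) and Cx3cl1 by 0.97 ± 0.13 (1.09e-05). Lower in code SI were Cxcl1 with a log2 difference of -2.37 ± 0.44 (edgeR adjusted p = 0.000288) and Ccl28 with -1.32 ± 0.15 (8.67e-07). Within the BMT group 9 were tested and 5 differed, 2 higher and 3 lower in code SI, beside 21.9% of 14720 genes (8.82% higher and 13.1% lower). Ccl25 was higher in code SI by 6.34 ± 0.25 (edgeR adjusted p = 4.37e-10) and Cx3cl1 by 1.00 ± 0.19 (0.00156), close to their BM values. Cxcl16 was now the lower in code SI, with -1.28 ± 0.20 (edgeR adjusted p = 0.000263), and so were Cxcl1 with -1.90 ± 0.40 (0.00307) and Ccl20 with -2.65 ± 0.52 (0.00168). Cxcl1 and Ccl20 did not pass without BMT replicate 2 (edgeR adjusted p = 0.0614 and 0.0653). In the BM group, without BM replicate 1 the Ccl5 difference was 1.78 and that of Cxcl1 -3.10, without BM replicate 2 that of Ccl5 was 3.85, and without BM replicate 3 that of Cxcl1 was -1.73. The log2 differences of Ccl5 at -0.25 ± 0.26, Ccl6 at -0.37 ± 0.29, Ccl9 at 0.02 ± 0.20 and Ccl28 at 0.41 ± 0.25 did not pass in BMT.

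**Figure D3:**
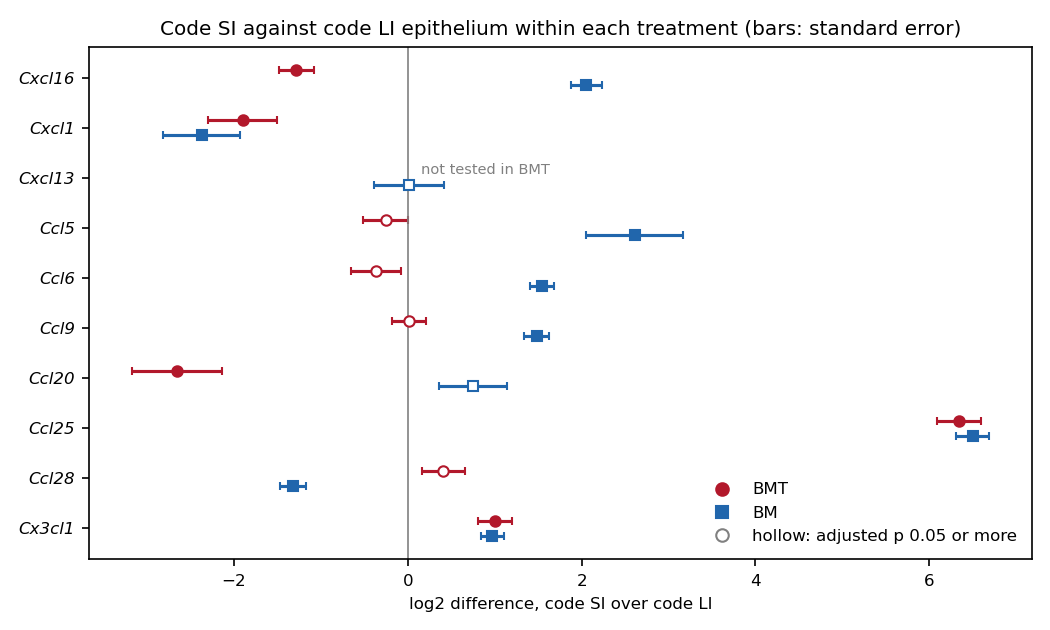
Log2 difference of code SI over code LI epithelium for each chemokine, within BMT (red circles) and within BM (blue squares), with standard errors as bars and hollow symbols where the adjusted p was 0.05 or more. Ccl25 is at 6.34 in BMT and 6.50 in BM, while Cxcl16 is at -1.28 in BMT and 2.05 in BM.

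Levels of different genes were compared per length, as TPM (counts per deposited gene length, scaled to the same total in each library), among 38 chemokine genes. The 10 chemokines made up 62.9 ± 9.63% of the summed chemokine TPM in BMT and 98 ± 0.752% in BM of code SI. In code LI the share was 40.1 ± 4.37% in BMT and 89.4 ± 1.55% in BM. Libraries of the 2 groups did not overlap in either set. In liver it was 42.7 ± 10.8% in BMT and 22.2 ± 15.1% in BM, with overlap. BM livers 1, 2 and 3 were at 35, 26 and 5.54%. A share also moves with the other 28 genes, which include Cxcl9, Cxcl10 and Cxcl11. The 10 summed to 265 to 335 CPM in BMT against 302 to 331 CPM in BM of code LI, with overlap. In code SI they summed to 366 to 650 CPM in BMT against 890 to 1051 CPM in BM, and in liver to 225 to 299 CPM in BMT against 85.6 to 146 CPM in BM. Ccl6 took the largest part in the BM epithelium: 18.2 ± 9.16% in BMT and 63.3 ± 1.05% in BM of code SI, and 14.8 ± 0.805% in BMT and 54.5 ± 1.79% in BM of code LI. In liver, Ccl6 took 21 ± 4.72% in BMT and 3.62 ± 2.58% in BM. Ccl28 took 0.646% in BMT and 18 ± 1.45% in BM of code LI. The order depends on the length used for Ccl25, whose deposited length is 7445 bases while its coding transcripts average 916 bases. Per kilobase of coding transcript, Ccl25 led the 10 in code SI, with 265 ± 80.4 CPM per kilobase in BMT and 436 ± 31 in BM, ahead of Ccl6 with 59.1 ± 35.9 in BMT and 265 ± 27.8 in BM.

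**Figure D4:**
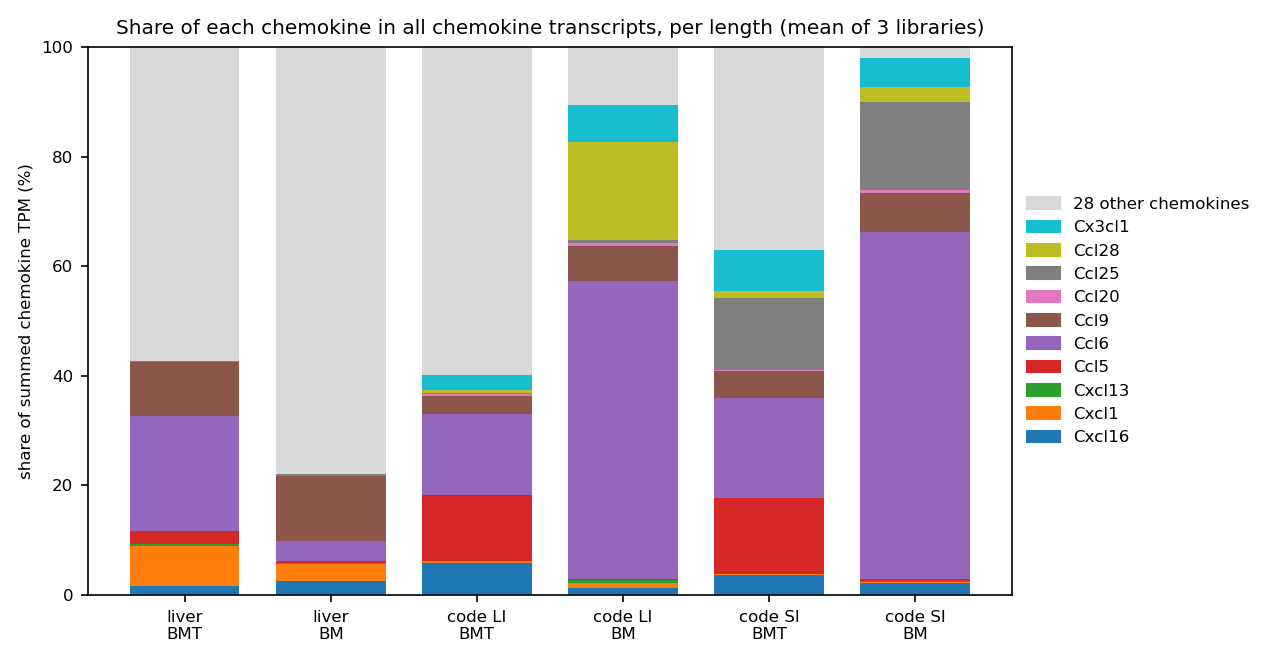
Share of each chemokine in the summed TPM of 38 chemokine genes, as the mean of 3 libraries per group, with BMT left of BM in each tissue. The other 28 chemokines, Cxcl9, Cxcl10 and Cxcl11 among them, are in light grey. Ccl6 (purple) fills 63.3% of the BM bar and 18.2% of the BMT bar of code SI, and Ccl28 (olive) 18% of the BM bar and 0.646% of the BMT bar of code LI.

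The summed level of 25 other chemokines was 71 to 81.9 CPM in BMT against 1.44 to 2.65 CPM in BM of code LI, 22.1 to 27.7 CPM in BMT against 0.995 to 2.95 CPM in BM of code SI, and 266 to 361 CPM in BMT against 319 to 369 CPM in BM of liver. Only 9 of them passed the low-count filter in code LI and 4 in code SI, among these genes near 0 in BM that entered through their BMT level and could then only be higher, so no direction is read from the number called. The 4 in code SI were Ccl1, Ccl3, Ccl4 and Xcl1, which activated lymphocytes release, among other cells. Ccl4 held 20.6, 16.8 and 12.1 CPM in BMT of code LI, against 2 counts over the 3 BM libraries. Ccl1 held 12.9, 18.5 and 19.7 CPM in BMT of code LI, against 1 count over the 3 BM libraries. In liver 8 of the 25 were tested, and Ccl3, Ccl4 and Ppbp rose with log2 fold changes of 3.26, 2.43 and 1.35. The Cxcr3 ligands Cxcl9, Cxcl10 and Cxcl11 all rose in both epithelial sets, with log2 fold changes of 3.34, 3.66 and 3.87 in code LI and 4.08, 3.93 and 3.34 in code SI. None of the 3 passed in liver, where BM replicate 3 held 2323 CPM of Cxcl9.

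The receptors were led by Cxcr6, the receptor of Cxcl16 on effector T cells, which rose in all 3 tissues. In code LI it held 38.5, 33.3 and 19.4 CPM in BMT, against 0.102, 0.0898 and 0.273 CPM in BM, a log2 fold change of 7.50 ± 0.39 (edgeR adjusted p = 2.93e-07). In code SI it held 12.1, 15.1 and 15.4 CPM in BMT, against 0.227, 0.271 and 0.205 CPM in BM, a log2 fold change of 5.93 ± 0.31 (edgeR adjusted p = 3.02e-06). Cxcr6 thus rose in code SI and in liver (3.27 ± 0.31, edgeR adjusted p = 0.00187), where Cxcl16 did not pass. Of 10 receptors listed, 3 of 5 tested rose in code LI, 3 of 4 in code SI and 3 of 5 in liver. Of all genes tested, 20.4%, 11.6% and 7.46% were called higher in those tissues. Several of these entered the test through their BMT level and could then only be called higher, so no direction is read from the number called.

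In both epithelial sets the 3 receptors of the list that rose were Cxcr6, Cx3cr1 and Ccr9. Cx3cr1, the receptor of Cx3cl1, held 6.13, 4.17 and 1.86 CPM in BMT of code LI, against 0.102, 0.135 and 0.234 CPM in BM, while its ligand showed no call. Ccr9, the receptor of Ccl25, held 2.33, 3.65 and 4.59 CPM in BMT of code SI, against 0.864, 0.362 and 0.511 CPM in BM, a log2 fold change of 2.64 ± 0.42 (edgeR adjusted p = 0.00111). Its ligand was lower in BMT in the same libraries. In liver Cxcr6 was joined by the receptors of myeloid cells: Ccr1 held 4.16, 3.44 and 2.08 CPM in BMT, against 0.272, 0.0909 and 0.326 CPM in BM, and Cxcr2 held 4.61, 3 and 1.98 CPM in BMT, against 0.498, 0.409 and 0.28 CPM in BM. Their log2 fold changes were 3.99 ± 0.48 and 3.19 ± 0.46 (edgeR adjusted p = 0.00326 and 0.00584). Cx3cr1 did not pass in liver (edgeR adjusted p = 0.524). Ccr1 did not pass in code LI (0.82 ± 0.38, edgeR adjusted p = 0.113) or code SI (0.44 ± 0.61, edgeR adjusted p = 0.642). Ccr10 was tested in code LI alone, with a log2 fold change of -0.54 ± 0.49 (edgeR adjusted p = 0.402), at 0.134 to 0.524 CPM in BMT and 0.494 to 0.56 CPM in BM. Cxcr1, Cxcr5 and Ccr6 passed the low-count filter in none of the 3 tissues, and Ccr3 in liver alone, where it did not pass the test (edgeR adjusted p = 0.772).

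**Figure D5:**
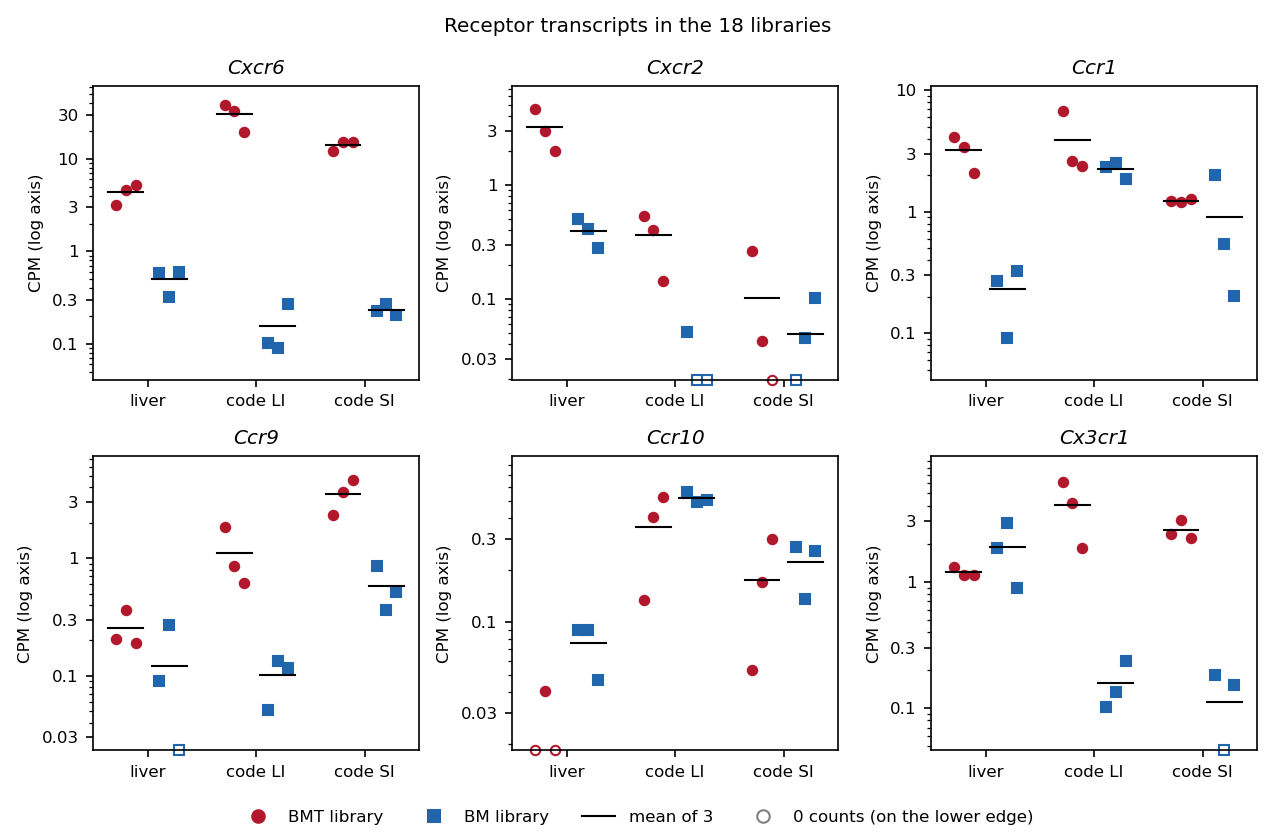
CPM of 6 receptors on a log axis in the BMT libraries (red circles) and BM libraries (blue squares) of each tissue, with the mean of 3 as a black line and 0 counts as a hollow symbol on the lower edge. Cxcr6 sits higher in BMT in each tissue, Cxcr2 and Ccr1 sit higher in BMT in liver without overlap, and Ccr9 is highest in code SI BMT, at 2.33 to 4.59 CPM.

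Of 5 atypical receptors, which bind chemokines without steering cells, Ackr2 rose in liver (1.43 ± 0.24, edgeR adjusted p = 0.0102), Ccrl2 rose in code LI (2.57 ± 0.23, edgeR adjusted p = 1.41e-05), and none passed in code SI, with 5, 4 and 2 tested. Among 24 genes of inflammatory signalling and NF-kappaB, 10 rose and 2 fell of 18 tested in code LI, 4 rose and 1 fell of 17 in code SI, and 3 rose of 19 in liver, beside 41.4%, 23.4% and 10.8% of all genes called in those tissues. The shares in code SI and liver were near those of all genes. Nfkbiz, a nuclear co-factor of NF-kappaB, rose in liver by 1.53 ± 0.18 (edgeR adjusted p = 0.00319). It fell by 0.80 ± 0.15 in code LI (edgeR adjusted p = 0.00216) and fell by 1.35 ± 0.15 in code SI (edgeR adjusted p = 0.00013). Tnfaip3, the feedback inhibitor of NF-kappaB, rose in code LI by 1.91 ± 0.17 (edgeR adjusted p = 1.15e-05) and in code SI by 0.99 ± 0.15 (edgeR adjusted p = 0.000828). Il1r1, a receptor of interleukin-1, fell by 3.91 ± 0.24 in code LI (edgeR adjusted p = 9.6e-07). The median log2 fold changes of this list were 0.52, 0.12 and 0.28 in code LI, code SI and liver.

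Likeness of pattern was measured as Pearson's r of the deviations from the tissue mean of log2(CPM + 1) over the 18 libraries, among 10840 genes with a mean of at least 5 CPM, as a description in which the libraries share the BMT contrast. Ccl5 was most like Cd3g, a T cell receptor subunit (r = 0.994), Il2rb (0.994) and Ikzf1 (0.993). Cxcl16 was most like Dnase1l3 (r = 0.963), Fkbp1a (0.962) and Fam20a (0.944), and Ccl28 like Swap70 (0.976), Prcp (0.975) and Ctsf (0.975). For Ccl6 these were Qsox1 (r = 0.928), Dnajc12 (0.908) and Zc3h12a (0.907), for Ccl25 Fam213a (0.894), Peg13 (0.887) and Decr1 (0.883), and for Ccl9 Fam234b (0.887), Serpina10 (0.868) and Bhmt2 (0.857). Lower values were reached by Cxcl1 with Slc11a2 (r = 0.881), Pfkfb1 (0.857) and Rab7 (0.852), and by Cx3cl1 with Mib2 (0.853), Tmem115 (0.842) and Rnpepl1 (0.836). Cxcl13 was most like Mgst2 (r = 0.849), Cd24a (0.844) and Cd177 (0.831), and Ccl20 like Shf (0.835), Rpain (0.821) and Nlrp9b (0.803), and both rest on low counts. Among the 10 themselves the lowest values were those of Ccl28 with Ccl5 (r = -0.92) and with Cxcl16 (-0.84), and the highest those of Cxcl16 with Ccl5 (0.75) and of Ccl6 with Ccl9 (0.71).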

How the data were processed

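The authors deposited 1 table of raw counts per gene for 18 libraries, with gene positions and lengths. Per the submitters' processing notes, the tools were STAR 2.7.0e, featureCounts 1.6.3 and FastQC 0.11.9, on GRCm38.p5. The sources used here do not give the annotation release or strand setting, so overlapping genes may share reads. PolyA RNA was read from a stranded kit, per the labels' protocols. IDs were named through GENCODE (53274 of 53379, the remaining 105 holding 0.00257% of counts). CPM used library totals, and TPM the deposited lengths. Each tissue was fitted with edgeR 4.0.16 in R 4.3.3 (filterByExpr, TMM, two-sided quasi-likelihood F-test, Benjamini-Hochberg over all genes, threshold 0.05), and a standard error is the log2 fold change over the square root of F. Tissue differences used the library number, repeated in all tissues, as a block. Alternatives were other scaling, no filter, DESeq2 1.42.0, 1 joint fit, the replicate block, 1 lane, and leaving out each library. Where tissues were compared, a library number was left out, which removes 1 library from each tissue in the comparison. The scripts were tested on simulated data. All 10 chemokines are named whatever their result, with up to 4 called genes of each list, the receptors listed, and the 3 most alike genes. A further receptor is not reported here. The chemokines and lists were chosen with earlier results of these data known. Region markers with values were chosen after their values were seen.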

Additional observations from a re-analysis of the deposited data

Results flagged for a closer look

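The BMT effect, as a log2 fold change over BM, differed between tissues in 13 tests of the difference itself, each with an edgeR adjusted p under 0.05 over 17275 genes. Code SI minus code LI gave -3.35 for Cxcl16, -1.85 for Ccl6, -1.48 for Ccl9, -3.37 for Ccl20 and 1.73 for Ccl28. Liver minus code SI gave 5.37 for Cxcl13, 5.75 for Ccl6 and 1.54 for Ccl9. Liver minus code LI gave -3.55 for Cxcl16, 1.37 for Cxcl1, 3.43 for Cxcl13, -4.57 for Ccl5 and 3.90 for Ccl6. Ccl6 passed in all 3 comparisons, which share libraries. The Cxcl1 difference passed in 5 of 10 alternatives and failed in 5, among them the fit with no replicate block (edgeR adjusted p = 0.069).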

How the results depend on the processing

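Over all comparisons and settings, 693 chemokine values kept their direction and side of the threshold, 31 lost the call, 22 gained it and 25 changed sign; the sign changes were in uncalled values, and causes were not tested. In liver, 5 of the chemokines passed without the low-count filter and 5 with all 18 libraries in 1 fit, against 3, the gains being Ccl9 and Cxcl13. Leaving out 1 library number gave 2 to 5 calls for code SI minus code LI (5 with all), 3 to 6 for liver minus code LI (5) and 3 to 5 for code SI against code LI in BMT (5). Cxcl16 in liver was 0.011 with the replicate block and 0.56 on lane L002, and -0.27 to 0.40 on leaving out a library. Cx3cl1 in code LI was -0.13 to 0.25 on leaving out a library, and in code SI -0.017 to 0.33. The lane L002 fit is the same fit as leaving out BMT replicate 3 in code LI, with Cx3cl1 at -0.13. In code SI it is the same fit as leaving out BMT replicate 2. The counts of chemokine values above hold both copies of each. For code SI minus code LI, Cx3cl1 was -0.0057 with RLE and -0.028 with library totals. Leaving out a library number there gave Cx3cl1 -0.14 to 0.16, against -0.44 to 0.075 for Ccl25 and -0.19 to 1.22 for Cxcl1. Leaving out a library gave Ccl20 -0.17 to 0.90 in code LI. For liver minus code LI, leaving out a library number gave Ccl20 -2.88 to 1.95 and Ccl9 -0.016 to 0.15, and library totals gave Ccl9 -0.15. For liver minus code SI, leaving out a library number gave Cxcl16 -0.59 to 0.37. For code SI against code LI in BM, leaving out a library number gave Cxcl13 -0.39 to 0.34 and Ccl20 -0.065 to 1.28. In BMT it gave Ccl9 -0.17 to 0.16, Ccl5 -0.64 to 0.17 and Ccl6 -0.84 to 0.16, and Ccl9 was -0.0095 with library totals. Ccl5 for code SI minus code LI passed with no replicate block (-3.07, edgeR adjusted p = 0.0357), where Ccl6 did not (0.0599); nor did Cxcl1 for liver minus code LI (0.069). Ccl6 in code LI did not pass with all 18 libraries in 1 fit (edgeR adjusted p = 0.404) or without the filter (0.0551). Ccl9 in liver and Ccl25 in code SI passed with DESeq2 (adjusted p = 0.0215 and 0.0383). Over all genes, library totals, an alternative chosen after seeing the data, moved the median in liver to -0.20 from TMM's -0.02 and the calls to 812 higher and 1183 lower, against 1055 higher and 473 lower. Liver calls over all genes were 569 to 2617 on leaving out a library (1528 with all). Without BM replicate 2 in code SI the count was 2086 (3420 with all). Leaving out a library number gave 297 to 1121 for code SI minus code LI (848 with all), where the fit without the filter gave 1842. Counts on leaving out a library number were 1144 to 2504 for liver minus code SI (2590) and 1844 to 3165 for liver minus code LI (3242). They were as low as 2054 for code SI against code LI in BMT (3219). Deviations of same-numbered BMT and BM libraries correlated at -0.23 to 0.44, so the title replicate numbers were taken as only shared numbers. Library numbers across tissues gave -0.16 to 0.31, with 7 of 18 over 0.1. The block of library number in the tissue comparisons rests on the numbers repeated in the labels, and not on these correlations. As a replicate block the title numbers gave edgeR adjusted p of 0.0591 for Ccl6 in code LI, 0.031 for Ccl9 in liver and 0.0477 for Ccl25 in code SI, and over all genes 1125 higher and 505 lower in liver, 2637 and 2730 in code LI, and 1500 and 1528 in code SI. Depth limits Cxcl13, Ccl20, Ccl28 and Cx3cl1 in liver, where few counts were read.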
